A study of Mus musculus with 16 samples.

Results

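Epididymal white fat (eWAT) of mice homozygous for PPARg-K107R was compared between rosiglitazone and vehicle. PPARg-K107R carries arginine at the lysine where the receptor can take a SUMO group, and rosiglitazone is a synthetic agonist of that receptor. The comparison uses 4 of the study's 16 libraries, 2 per treatment, which the labels number 1 and 2. All mice had 10 weeks of chow and then 19 weeks of a high-fat diet, with fat as 60% of calories. Gavage lasted 1 week, with rosiglitazone at 10 mg/kg in 1% methylcellulose or with methylcellulose alone as vehicle. The same pair of treatments in wild-type (WT) eWAT and in inguinal fat (iWAT) of K107R homozygotes, each with 2 libraries per group, served to show where the response differed. The labels give neither strain nor sex, and do not say whether the libraries of a group came from separate mice. A p-value therefore covers only how far these libraries vary, and that variation may be technical. The question was how fat that lacks the K107 SUMO site responds to the drug.

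PPARg is the nuclear receptor that directs fat cell formation and lipid storage. With its partner RXR it sits on DNA at paired copies of a short core motif, and an agonist shifts it from corepressors to coactivators. SUMO on PPARg is known mainly for repression, and thiazolidinediones such as rosiglitazone are known to raise lipid-storage and lipid-oxidation genes in white fat and to bring up part of the brown fat program, whose best known product is the mitochondrial uncoupler Ucp1.

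Values are FPKM (read fragments scaled by transcript length and library size), listed for 14023 genes, of which 13669 reached 1 FPKM in at least 2 libraries and were tested. Differences are given as log2(FPKM + 1) with the standard error (SE) of limma, a scale that understates changes of low genes, and a gene is called risen or fallen at a Benjamini-Hochberg adjusted p under 0.05. Genes were set aside where all eWAT libraries outside the K107R vehicle group were below 1 FPKM, or below 1% of that group's mean. That rule took 673 tested genes, and Fabp4, the fat cell fatty acid carrier, was also set aside because it was listed at 0 in both K107R rosiglitazone libraries, against 20370 and 16560 FPKM in the vehicle libraries. The remaining 12995 genes are described here. Depth is unknown, since the table holds no counts. FPKM summed to between 411746 and 596519 per library. The tissue label was checked on 12 fat cell identity genes. Each of the 12 reached 1 FPKM in all 4 libraries, with sums of 11030 and 9883 FPKM under vehicle and 15970 and 14810 FPKM under rosiglitazone.

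The vehicle libraries of K107R eWAT also held RNA of another organ. All 12 genes in the table from a list of epididymis markers were set aside, and they summed to 4943 and 4477 FPKM in K107R vehicle, against 0.886 and 9.36 FPKM in K107R rosiglitazone and at most 0.363 FPKM in the 4 WT libraries. Of the set-aside genes, 58 reached 10 FPKM in both K107R vehicle libraries, and 53 of those stayed under 1 FPKM in every iWAT library. The protease inhibitor gene Spint4 lay at 1078 and 1274 FPKM in K107R vehicle and at 0 and 1.71 FPKM in K107R rosiglitazone. Crisp1, a secreted protein of the epididymis that coats sperm, lay at 726 and 282 FPKM, then at 0 and 0.851 FPKM. Lcn5, an epididymal lipocalin, lay at 418 and 461 FPKM, then at 0 and 0.450 FPKM. The set-aside rule removes genes absent elsewhere, and it cannot remove the epididymal share of a gene that fat also expresses.

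**Figure D1:**
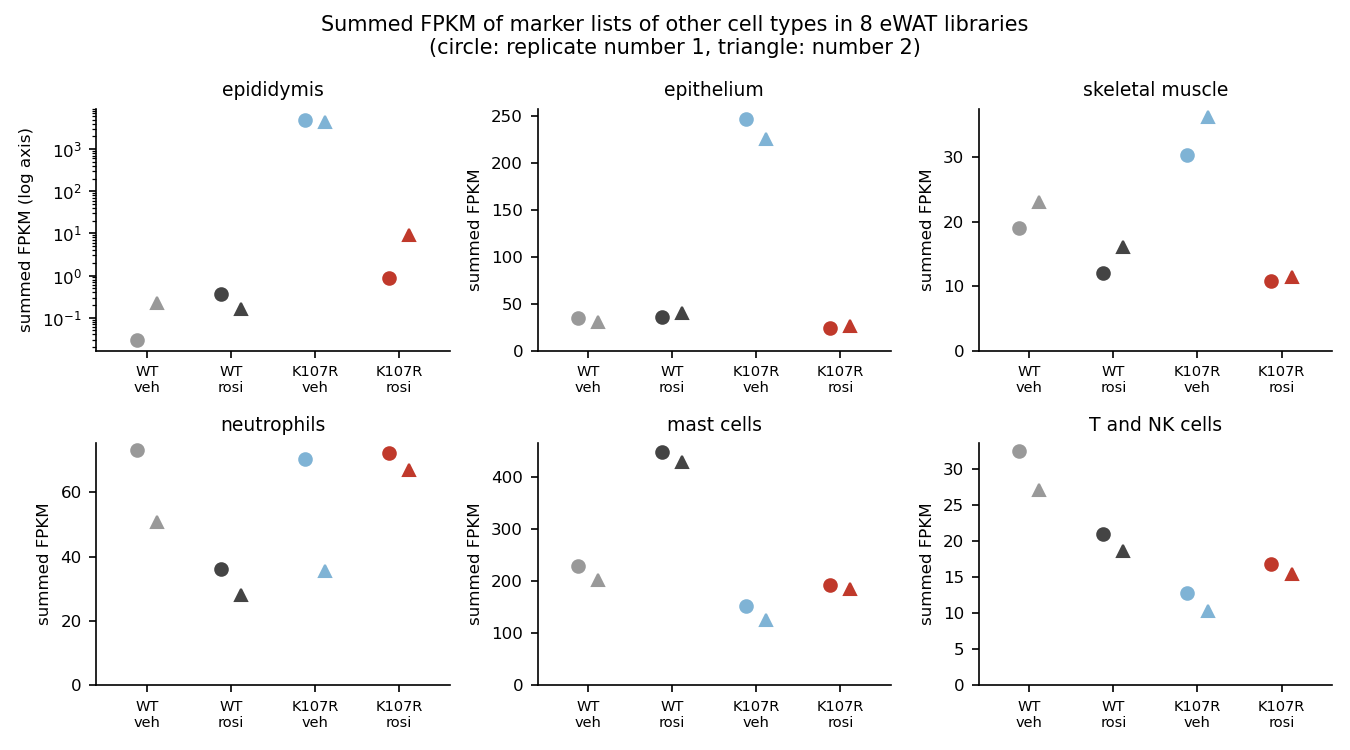
Summed FPKM (y axis, logarithmic for epididymis) of 6 marker lists of other cell types in the 8 eWAT libraries, by genotype and treatment on the x axis, with 1 point per library. The K107R vehicle libraries stand apart for epididymis (4943 and 4477 FPKM) and epithelium (247 and 226 FPKM), and mast cell sums were highest in WT rosiglitazone (449 and 428 FPKM).

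Under rosiglitazone, 167 genes were higher (1.29% of those tested) and 219 lower (1.69%) than under vehicle in K107R eWAT. Of the 219, 78 had a K107R vehicle mean over 2 times that of WT vehicle. For these 78 a response to the drug and epididymal RNA in the vehicle libraries cannot be told apart. Both K107R rosiglitazone libraries lay below both WT vehicle libraries for 33 of the 78, as for 19.3% of all genes. The largest rises were those of the fatty acid elongase Elovl3 of brown fat, the uncoupler Ucp1, the myeloid calcium-binding protein S100a9, the sphingolipid enzyme subunit Sptlc3 and the nuclear protein Ldoc1, followed by the peroxisomal enzyme Ehhadh and the epoxide hydrolase Ephx2. The large falls included those of the glutathione transferase Gstm7, the keratin Krt18 and the chaperone Clu, genes that were already high in K107R vehicle. Of 15 acute phase proteins, 8 fell. The 2 libraries of each treatment did not overlap for any of the 386 called genes (2.97%), as was the case for 34.5% of all genes. Both K107R rosiglitazone libraries lay above all 6 other eWAT libraries for 155 of the 167 risen genes (9.40% of all genes), and below all 6 others for 127 of the 219 fallen genes (4.39%). Among the 167, 8 reached 1 FPKM in the K107R rosiglitazone libraries only. These 8 entered the test through that group, which fixed their place above the others. At an unadjusted p under 0.05 there were 1152 genes. With no gene set aside, 176 of the genes tested rose (1.29%) and 493 fell (3.61%).

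The replicate numbers carried a difference of their own. K107R vehicle replicate 2 had a median of 6.21 FPKM, against 9.49 in vehicle replicate 1 and 8.95 and 8.83 in the rosiglitazone libraries. The median log2 change of all genes was 0.19, and it was -0.00 between the libraries numbered 1 and 0.37 between those numbered 2. All 167 risen and 219 fallen genes moved in their direction within both numbers, which follows from the lack of overlap between treatments and is no further test. With the replicate number as a block, 681 genes rose (5.24%) and 507 fell (3.90%), and all 386 calls were among them. Deviations of same-numbered libraries correlated at only 0.129 between these 2 treatment groups, so the pairing behind the block is weak here. Leaving out 1 of the 4 libraries left 76 to 123 risen and 115 to 151 fallen genes. The risen genes numbered 88 without vehicle replicate 2, 90 without rosiglitazone replicate 1 and 76 without rosiglitazone replicate 2. The fallen genes numbered 115 without rosiglitazone replicate 1 and 137 without rosiglitazone replicate 2. Rescaling each library by its median ratio brought the median of all genes to 0.01 and gave 160 risen and 291 fallen genes, of which 173 in all were also called on the deposited scale. The share of risen genes among those called was 35.5% then, against 43.3%. A gene is described below as kept or lost after rescaling by its call there. Actb, the actin of every cell, lay at 2016 and 96.9 FPKM in vehicle replicates 1 and 2 and at 1460 and 938 FPKM under rosiglitazone, and gave no call (log2 1.40 ± 2.54 SE).

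The thermogenic genes had the highest median of the lists of fat cell functions. Of 17 brown and beige thermogenic genes left after the set-aside, 6 rose and none fell (median log2 1.23, against 0.19 for all genes). The replicate block gave 9 risen members and rescaling 3. Over all genes, the shares to set beside this and the list counts below were 1.29% risen and 1.69% fallen. With the block they were 5.24% and 3.90%, and after rescaling 160 of the 12995 genes rose and 291 fell. In WT eWAT the same list had a median of 0.23 and no called member, where 0.177% of all genes rose, and with the block 3 members rose, as did 1.07% of all genes. Without any 1 of the 4 libraries, 5 or 6 members rose.

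Ucp1 (chromosome 8, 83290352 to 83298452 in GRCm38), which lets protons back through the inner mitochondrial membrane and so makes heat, lay at 2.42 and 1.01 FPKM in the vehicle libraries and at 19.0 and 20.2 FPKM under rosiglitazone. Both rosiglitazone libraries stood far above vehicle and above WT rosiglitazone, at 3.46 and 2.54 FPKM (log2 2.97 ± 0.45 SE, adjusted p = 0.0022). Elovl3 (chromosome 19, 46131897 to 46135694), which lengthens fatty acids in brown fat, lay at 2.15 and 1.12 FPKM, then at 18.6 and 20.5 FPKM (log2 2.99 ± 0.28, adjusted p = 5.8e-05). Both genes kept their call without each of the 4 libraries and after rescaling.

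Fabp3, a carrier of fatty acids in heart and brown fat, rose from 9.62 and 12.9 FPKM to 37.9 and 43.5 FPKM (log2 1.78 ± 0.23, adjusted p = 8.0e-04). Cidea, a lipid droplet protein of brown fat, rose from 6.32 and 7.52 to 21.1 and 19.4 FPKM (log2 1.42 ± 0.17, adjusted p = 4.8e-04). Cox8b and Cox7a1, cytochrome c oxidase subunits found in muscle and brown fat, rose by log2 1.44 ± 0.17 and 1.43 ± 0.26. None of these 4 genes was called after rescaling, where their log2 changes were 1.56, 1.21, 1.21 and 1.21. Cox7a1 was also lost without vehicle replicate 1 and without either rosiglitazone library. Regulators of the program were low and gave no call: the zinc finger factor Prdm16 lay at 1.24 and 0.474 FPKM, then at 1.25 and 1.15 FPKM. The coactivator Ppargc1a, under 0.7 FPKM in all 4 libraries, fell under the set-aside rule.

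**Figure D2:**
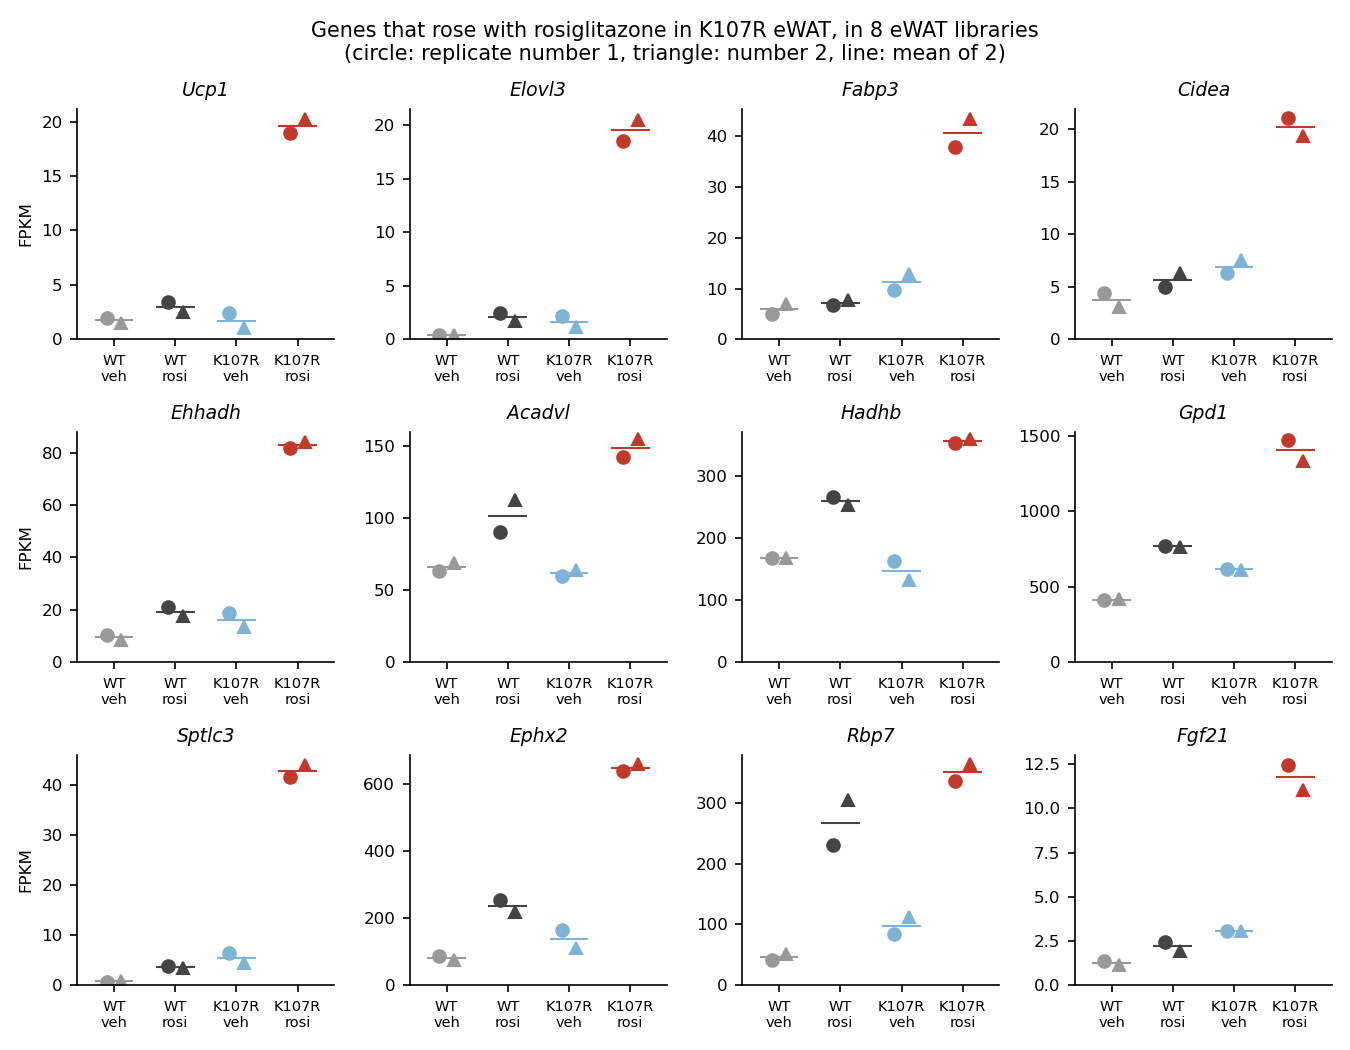
FPKM (y axis, from 0) of 12 genes that rose with rosiglitazone in K107R eWAT, in the 8 eWAT libraries by genotype and treatment (x axis); symbols show the replicate number and lines the mean of 2 libraries. The K107R rosiglitazone libraries are the highest pair in each panel, with Ucp1 at 19.0 and 20.2 FPKM against at most 3.46 FPKM in the other 6 libraries, while Rbp7 was also high in WT rosiglitazone.

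The 250 bases before the start of 4 risen genes are shown to let the reader compare genes that moved together. They come from RefSeq on GRCm38.p6 and read 5′ to 3′ on the gene's strand, and capitals mark AGGTCA, the core motif of nuclear receptors such as PPARg and RXR. Ucp1 lies on the plus strand (chr8:83290098-83290347) and has 1 such motif that begins 14 bases before the start. Acadvl, the very-long-chain acyl-CoA dehydrogenase, lies on the minus strand (chr11:70015429-70015678) and has 1 such motif that begins 87 bases before the start. Ehhadh (minus strand, chr16:21787835-21788084) and Sptlc3 (plus strand, chr2:139493663-139493912) have none in this window.
Ucp1: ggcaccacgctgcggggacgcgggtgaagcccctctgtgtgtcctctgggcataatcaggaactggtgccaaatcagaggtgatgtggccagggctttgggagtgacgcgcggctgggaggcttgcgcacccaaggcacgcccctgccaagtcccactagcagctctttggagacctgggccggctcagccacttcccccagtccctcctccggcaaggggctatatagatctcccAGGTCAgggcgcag
Acadvl: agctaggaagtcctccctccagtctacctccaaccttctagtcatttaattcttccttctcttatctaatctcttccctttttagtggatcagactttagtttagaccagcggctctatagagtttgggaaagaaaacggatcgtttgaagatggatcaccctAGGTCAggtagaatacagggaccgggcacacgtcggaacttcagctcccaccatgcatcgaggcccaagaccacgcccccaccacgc
Ehhadh: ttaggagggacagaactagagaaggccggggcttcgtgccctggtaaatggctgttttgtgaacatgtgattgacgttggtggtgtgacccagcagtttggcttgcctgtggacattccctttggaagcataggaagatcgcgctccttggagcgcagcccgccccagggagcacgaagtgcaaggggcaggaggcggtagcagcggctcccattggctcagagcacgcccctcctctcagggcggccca
Sptlc3: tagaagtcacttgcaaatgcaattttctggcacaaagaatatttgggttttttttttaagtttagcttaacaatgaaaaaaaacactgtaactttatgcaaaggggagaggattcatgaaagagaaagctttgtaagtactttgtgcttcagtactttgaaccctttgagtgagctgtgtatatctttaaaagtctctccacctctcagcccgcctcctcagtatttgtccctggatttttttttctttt

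AGGTCA or its reverse complement was found in these 250 bases for 21 of the 127 risen genes with a RefSeq entry (16.5%), for 15 of 152 fallen genes (9.87%) and for 1291 of 9783 genes tested (13.2%). Over all 32851 promoters in the table, 14.0% held it. The paired site with 1 base between the copies, searched as AGGTCANAGGTCA on both strands, was found in 0 of the 127 and 0 of the 152, and in 11 of all 32851 promoters (0.0335%). Each match to the pair also counts as a match to the core motif. These are matches of letters, and no binding was measured.

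Mitochondrial fatty acid oxidation shortens fatty acids to acetyl-CoA. Of 24 genes, 9 rose and none fell, and 17 rose with the replicate block (median log2 0.89). All 24 had positive log2 changes, as did 73.4% of all genes. After rescaling 5 rose, with a median of 0.67, and 6 or 7 rose without any 1 library. In WT eWAT the median was 0.40 and no member was called, and 5 rose with the block.

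Acadvl (chromosome 11, 70010183 to 70015411) lay at 59.6 and 63.6 FPKM under vehicle and at 142 and 155 FPKM under rosiglitazone (log2 1.26 ± 0.14, adjusted p = 2.5e-04). Acadl and Acadm, the long- and medium-chain dehydrogenases, rose by log2 1.08 ± 0.25 and 0.90 ± 0.14. Hadhb, the thiolase subunit of the trifunctional protein that takes the later steps, rose from 163 and 133 FPKM to 353 and 361 FPKM (log2 1.27 ± 0.17, adjusted p = 0.0011). Its partner subunit Hadha rose by log2 0.93 ± 0.12, and Etfdh, which passes the electrons on to ubiquinone, by 0.88 ± 0.14. Of these 6 genes, Hadhb and Acadl were called after rescaling. Acadl was lost without each of the 4 libraries in turn, and the other 5 kept their call each time. The rosiglitazone libraries did not overlap with vehicle for any of them.

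In peroxisomes, which shorten very long chains, 4 of 24 genes rose and none fell, and 11 rose with the replicate block (median log2 0.64). Ehhadh (chromosome 16, 21761287 to 21787807), which performs the middle steps of the pathway, rose from 18.8 and 13.5 FPKM to 81.7 and 84.3 FPKM (log2 2.31 ± 0.27, adjusted p = 3.9e-04). It kept its call without each library and after rescaling. The other 3 were the thiolase Acaa1b, which has a close copy that can share reads (1.27 ± 0.28), the second bifunctional enzyme Hsd17b4 (0.80 ± 0.16) and Pex11a, which serves peroxisome division (0.69 ± 0.15). All 3 were lost after rescaling, where 4 members of the list rose in all. Acaa1b was lost without each of the 4 libraries, and 1 or 2 members of the list rose without any 1 library.

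Downstream, 5 of 26 genes of the citrate cycle and pyruvate entry rose and none fell, and 15 rose with the block (median log2 0.61). All 26 log2 changes were positive, against 73.4% over all genes. Pdk4, which shuts pyruvate dehydrogenase and so spares glucose, rose from 71.0 and 36.9 FPKM to 207 and 227 FPKM (log2 2.06 ± 0.45, adjusted p = 0.025). It was called after rescaling but lost without vehicle replicate 2 and without either rosiglitazone library. Idh3b, Dlst and Mdh2, a dehydrogenase subunit and 2 further enzymes of the cycle, rose by 0.74 ± 0.13, 0.60 ± 0.11 and 0.54 ± 0.12. These 3 were lost after rescaling, and no member of the list rose without rosiglitazone replicate 2.

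Of 84 nuclear genes for subunits of the respiratory chain, 7 rose and 1 fell (median log2 0.39). With the block 26 rose and 2 fell, after rescaling 1 rose, and without any 1 library 1 to 5 rose. Beside Cox8b and Cox7a1, risen subunits included Atp5o of ATP synthase (0.80 ± 0.15), the cytochrome Cyc1 of complex III (0.75 ± 0.17) and Ndufv1 of complex I (0.75 ± 0.15), of which none was called after rescaling. Atp5o was lost without vehicle replicate 2 and without rosiglitazone replicate 2, and Cyc1 and Ndufv1 were lost in 3 of 4 such fits. Ndufa4l2, a subunit known to be induced by hypoxia, was the 1 that fell (-0.75 ± 0.14). It lay at 14.6 and 17.1 FPKM, then at 10.0 and 8.01 FPKM, and was lost after rescaling and without either library numbered 2. None of 74 mitochondrial ribosome proteins was called by limma, with 4 at an unadjusted p under 0.05 and 2 with the block.

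**Figure D3:**
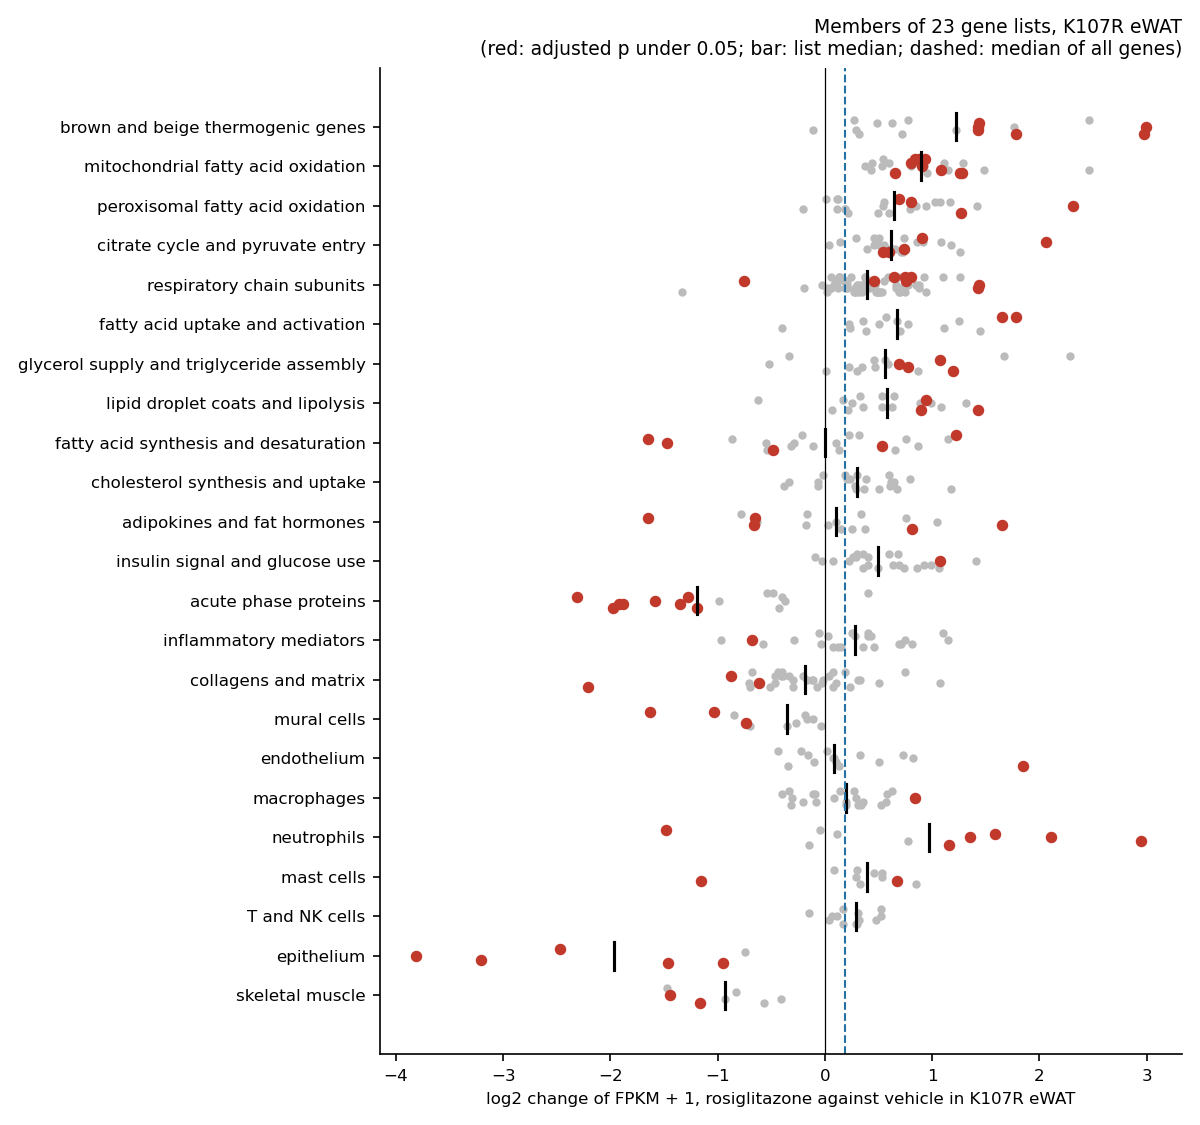
Log2 change with rosiglitazone in K107R eWAT (x axis) of each tested member of 23 gene lists (y axis); red points passed the test, black bars are list medians and the dashed line is the median of all genes, 0.19. The red points of the oxidation and thermogenic lists lie on the right and those of acute phase proteins on the left, with list medians from 1.23 for thermogenic genes to -1.97 for epithelium.

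Fat cells make triglyceride from fatty acids and glycerol 3-phosphate, which they form from glucose or, by glyceroneogenesis, from pyruvate. Of 17 genes of glycerol supply and triglyceride assembly, 4 rose and none fell, 8 rose and 1 fell with the block, and 1 rose after rescaling (median log2 0.56). Gpd1 (chromosome 15, 99717515 to 99725005), which makes glycerol 3-phosphate, rose from 616 and 611 FPKM to 1473 and 1335 FPKM (log2 1.19 ± 0.11, adjusted p = 7.3e-05). Pck1, the phosphoenolpyruvate carboxykinase of glyceroneogenesis, rose from 271 and 258 to 536 and 577 FPKM (1.07 ± 0.10, adjusted p = 7.9e-05). Pyruvate carboxylase Pcx rose by 0.78 ± 0.11 and the acyltransferase Agpat3 by 0.69 ± 0.16. All 4 lost their call after rescaling, and Agpat3 also without each of the 4 libraries.

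Among 18 lipid droplet and lipolysis genes, 3 rose and none fell, 10 rose with the block and 1 after rescaling (median log2 0.58). Beside Cidea these were Mgll, the monoglyceride lipase that ends lipolysis (0.89 ± 0.18), and Fitm2, which helps droplets form (0.94 ± 0.19). Both were lost without vehicle replicate 2, without either rosiglitazone library and after rescaling. Of 15 fatty acid uptake and activation genes, 2 rose, Fabp3 and the scavenger receptor Olr1 (1.65 ± 0.38), and 5 rose with the block. Olr1 lay at 1.25 and 0.501 FPKM, then at 5.87 and 3.84 FPKM, and was lost without each of the 4 libraries.

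Fatty acid synthesis split. Of 20 genes, 2 rose and 3 fell, and 4 rose and 5 fell with the block (median log2 -0.00, and -0.22 after rescaling). Acacb, the acetyl-CoA carboxylase that restrains mitochondrial fatty acid entry, rose from 9.03 and 8.53 FPKM to 22.6 and 21 FPKM (log2 1.22 ± 0.12, adjusted p = 1.1e-04). The lipogenic factor Srebf1 rose by 0.53 ± 0.11. The desaturase Fads2 fell from 32.5 and 25.9 FPKM to 9.61 and 7.67 FPKM (-1.65 ± 0.29, adjusted p = 0.0065). In WT it lay at 11.0 and 8.44 FPKM under vehicle and at 10.4 and 8.30 FPKM under rosiglitazone, so its K107R vehicle mean was over 2 times that of WT vehicle. For Fads2 a response to the drug and epididymal RNA in the vehicle libraries cannot be told apart. Thrsp, a nuclear activator of lipogenesis, fell from 156 and 174 FPKM to 50.8 and 67.3 FPKM (-1.47 ± 0.22, adjusted p = 0.0018), whereas both WT rosiglitazone libraries, at 211 and 262 FPKM, lay above their vehicle. Fatty acid synthase Fasn fell by 0.48 on the log2 scale. After rescaling Acacb and Fads2 were called and Thrsp, Srebf1 and Fasn were not. Fasn was lost without each of the 4 libraries, Fads2 without vehicle replicate 1 and without rosiglitazone replicate 2, and Srebf1 without either library numbered 2.

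Several enzymes outside these lists, or in short lists, rose far. Ephx2 (chromosome 14, 66084374 to 66124500), the soluble epoxide hydrolase that breaks down epoxides of fatty acids, lay at 164 and 110 FPKM under vehicle and at 638 and 658 FPKM under rosiglitazone (log2 2.26 ± 0.31, adjusted p = 0.0012). The cytochrome Cyp4b1 rose from 99.2 and 84.8 FPKM to 292 and 308 FPKM (1.70 ± 0.12, adjusted p = 5.2e-06). They were the 2 of 16 epoxide hydrolases and cytochromes that rose, and none fell. Sptlc3 (chromosome 2, 139493913 to 139637674), a subunit of the serine palmitoyltransferase that begins sphingolipid synthesis, rose from 6.46 and 4.48 FPKM to 41.6 and 44.0 FPKM (2.78 ± 0.23, adjusted p = 2.3e-05). In the list of 25 sphingolipid genes it was the 1 that rose, and the sphingosine kinase Sphk1 the 1 that fell (-0.69 ± 0.16; lost without each of the 4 libraries). Hsd17b11, a dehydrogenase found on lipid droplets, rose from 78.7 and 62.6 FPKM to 255 and 241 FPKM (1.81 ± 0.26). Ephx2, Cyp4b1, Sptlc3 and Hsd17b11 kept their calls without each library and after rescaling.

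Chchd10, a protein of mitochondrial cristae, had a log2 change of 1.76 ± 0.43 and kept its call after rescaling and without vehicle replicate 1, but lost it without each of the other 3 libraries. Less studied genes stood as high. Ldoc1, a nuclear protein, lay at 0.533 and 0.397 FPKM, then at 9.22 and 8.70 FPKM (2.77 ± 0.10, adjusted p = 2.1e-08). The butyrophilin-like gene Btnl4, of a family with close copies that can share reads, rose by 1.95 ± 0.13 and Lypd1 by 1.56 ± 0.25. Gbp2b, a guanylate-binding protein, lay at 0.0909 and 0.0392 FPKM under K107R vehicle and at 2.81 and 2.48 FPKM under rosiglitazone. The 4 WT libraries lay between 1.68 and 2.52 FPKM, and its call was lost without each of the 4 libraries. Of the 20 genes with the highest log2 rise, it was the 1 whose rosiglitazone libraries did not exceed all 6 others.

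Hormones and secreted factors moved both ways. Of 17 adipokines and fat hormones, 2 rose and 3 fell, and 4 rose and 3 fell with the block (median log2 0.11). Fgf21 (chromosome 7, 45613886 to 45615490), a hormone of liver and fat that raises lipid use, rose from 3.07 and 3.03 FPKM to 12.5 and 11.1 FPKM (1.65 ± 0.15, adjusted p = 4.0e-05) and kept its call in each alternative named above. Adipoq, adiponectin, rose from 1199 and 1068 FPKM to 1952 and 2022 FPKM (0.81 ± 0.17, adjusted p = 0.017). It was lost after rescaling and without each of the 4 libraries. Adipoq was also the 1 of 12 fat cell identity genes and the 1 of 15 genes tied to PPARg phosphorylation in obesity that rose. Leptin, Lep, lay at 845 and 530 FPKM, then at 584 and 602 FPKM, with groups that overlapped.

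Angiotensinogen Agt fell from 40.6 and 38.9 FPKM to 12.4 and 11.7 FPKM (-1.65 ± 0.15, adjusted p = 5.4e-05) and kept its call in each alternative named above, while the 4 WT libraries lay between 22.3 and 22.9 FPKM. The retinol carrier Rbp4 and the Wnt inhibitor Sfrp5 fell by 0.65 and 0.66 on the log2 scale. Both were lost after rescaling and in 3 of the 4 fits without a library.

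Pparg, the receptor itself, lay at 84.0 and 55.5 FPKM under vehicle and at 97.3 and 78.6 FPKM under rosiglitazone, with groups that overlapped (log2 0.35 ± 0.50). Of 26 genes of PPAR and RXR receptors and coregulators, 1 rose, and 2 rose and 1 fell with the block. It was Ppara, the fatty acid receptor of oxidation genes, which rose from 0.943 and 0.687 FPKM to 1.93 and 1.99 FPKM (0.71 ± 0.16). Ppara was called after rescaling and lost without each of the 4 libraries. None of 18 genes of SUMO conjugation and removal was called by limma, with 0 at an unadjusted p under 0.05 and 0 with the block. In insulin signal and glucose use 1 of 23 rose, 2 after rescaling and 5 with the block (median log2 0.50). It was Irs2, an adaptor of the insulin receptor, which rose from 12.2 and 14.2 FPKM to 28.2 and 29.5 FPKM (1.07 ± 0.13, adjusted p = 3.5e-04). Irs2 kept its call without each library but not after rescaling. In branched-chain amino acid breakdown 1 of 22 rose, the dehydrogenase subunit Bckdha (0.54 ± 0.12), lost after rescaling and without each of the 4 libraries, and 7 rose with the block. Over all genes 1.29% rose, and 5.24% with the block, and none of these lists was tested as a set.

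Several lists had no called member in limma: cholesterol synthesis and uptake (21 genes, 2 at an unadjusted p under 0.05, 1 with the block), circadian clock (18 genes, 1 and 4), stress and unfolded protein response (21 genes, 2 and 1) and interferon response (23 genes, 3 and 2). After rescaling 1 gene of the stress list fell and none of the other 3 lists was called. Of 32 antioxidant enzymes, the glutathione transferase Mgst3 rose (1.06 ± 0.13) and Gstm1 fell (-0.83 ± 0.12), both lost after rescaling, and 4 rose and 3 fell with the block. Of 17 immediate early genes Fos rose (0.94 ± 0.22), lost in 3 of the 4 fits without a library.

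Of 10 neutrophil markers left after the set-aside, 5 rose and 1 fell, on the deposited scale and after rescaling. Of the 5, Mpo, Ngp and Camp reached 1 FPKM in the K107R rosiglitazone eWAT libraries only, among all 16, as did 8 of the 167 risen genes. These 3 entered the test through the group in which they were high, so the count of 5 is given as a description only. S100a9, a calcium-binding protein of myeloid cells (chromosome 3, 90692632 to 90695721), rose from 1.60 and 1.24 FPKM to 15.2 and 20.3 FPKM (2.95 ± 0.25, adjusted p = 2.3e-05). Its heterodimer partner S100a8 lay at 58.2 and 25.7 FPKM, then at 39.9 and 30.5 FPKM, with overlapping groups. Ngp, a granule protein, lay at 0.0739 and 0.0520 FPKM, then at 4.18 and 3.06 FPKM (2.11 ± 0.12). Camp, the cathelicidin, lay at 0.138 and 0.167 FPKM, then at 2.76 and 2.17 FPKM (1.58 ± 0.20). Myeloperoxidase Mpo lay under 0.05 FPKM in both vehicle libraries and at 1.47 and 1.17 FPKM under rosiglitazone (1.16 ± 0.07). Retnlg rose by 1.35 ± 0.22 and was lost without rosiglitazone replicate 2. Lactoferrin Ltf, a granule protein that epithelia also secrete, fell from 5.0 and 4.22 FPKM to 0.863 and 1.16 FPKM (-1.48 ± 0.10). WT vehicle held only 0.310 and 0.322 FPKM of Ltf, and for this gene a response to the drug and epididymal RNA in K107R vehicle cannot be told apart. The whole list, 11 genes in the table and none at 0 in these 4 libraries, summed to 70.2 and 35.4 FPKM under vehicle and to 72.4 and 66.9 FPKM under rosiglitazone, so its sums overlapped. The part of neutrophil content in these changes was not tested. In bulk tissue, fewer cells of a type and less RNA per cell cannot be told apart.

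Other immune markers showed fewer calls. In mast cells Fcer1a, a chain of the IgE receptor, rose (0.67 ± 0.15; lost after rescaling and without each of the 4 libraries) and the tryptase Tpsab1 fell from 7.44 and 5.87 FPKM to 2.37 and 2.49 FPKM (-1.15 ± 0.18, adjusted p = 0.0027). Tpsab1 has a close copy that can share reads. The 10 mast cell markers summed to 152 and 126 FPKM, then to 193 and 185 FPKM, and 4 rose and 1 fell with the block. Of 22 macrophage markers Spp1, osteopontin, rose from 122 and 117 FPKM to 214 and 215 FPKM (0.83 ± 0.12, adjusted p = 0.0014), lost after rescaling. Its rise was larger in WT, from 86.0 and 88.1 FPKM to 309 and 308 FPKM (difference in log2 response -0.98, adjusted p = 0.0082). Of 13 T and NK cell and 8 B and plasma cell markers none was called by limma, with 1 and 0 at an unadjusted p under 0.05 and 0 and 0 with the block. Of 23 inflammatory mediators 1 fell, the nitric oxide synthase Nos2 (-0.68 ± 0.13), with 2 rising and 2 falling with the block and after rescaling. Nos2 was lost without vehicle replicate 1 and without either rosiglitazone library.

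Liver and fat release acute phase proteins in inflammation. Of 15, 8 fell and none rose, and 11 fell with the block and 9 after rescaling (median log2 -1.19). Of the 8, 2 had a K107R vehicle mean over 2 times that of WT vehicle. In WT eWAT 4 members fell, where 0.277% of all genes did, and 11 fell with the block, where 1.48% did (median -0.87). Haptoglobin, Hp, lay at 2382 and 3379 FPKM under vehicle and at 703 and 801 FPKM under rosiglitazone (-1.92 ± 0.34, adjusted p = 0.0069). Its call was lost without vehicle replicate 2, without rosiglitazone replicate 1 and after rescaling, where the log2 change was -2.14. Serum amyloid Saa3 fell from 56.9 and 75.0 FPKM to 15.3 and 16.5 FPKM (-1.97 ± 0.20, adjusted p = 1.2e-04). Lrg1, a secreted glycoprotein, fell from 368 and 435 FPKM to 98.7 and 117 FPKM (-1.88 ± 0.19, adjusted p = 9.7e-05).

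Serpina1b, an antitrypsin of a family with close copies that can share reads, fell from 36.2 and 35.2 FPKM to 7.29 and 5.64 FPKM (-2.31 ± 0.14, adjusted p = 1.5e-06). Lipocalin Lcn2 fell from 28.0 and 30.7 FPKM to 7.94 and 10.4 FPKM (-1.58 ± 0.17, adjusted p = 2.0e-04). Serpina3c, of another such family, fell by 1.35 on the log2 scale. Saa3, Lrg1, Serpina1b and Lcn2 kept their calls without each library and after rescaling, and Serpina3c was lost after rescaling. Under vehicle Serpina1b and Lcn2 were also above WT (14.7 and 14.2 FPKM, and 14.2 and 14.8 FPKM), with K107R means over 2 times those of WT. For these 2 genes a response to the drug and epididymal RNA in K107R vehicle cannot be told apart. Under K107R rosiglitazone both lay below WT vehicle, and the part of each in the fall was not tested. Saa3, at 81.6 and 75.2 FPKM in WT vehicle, and Lrg1, at 469 and 383 FPKM, were not above WT in K107R vehicle. This comparison of vehicle groups was not tested.

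**Figure D4:**
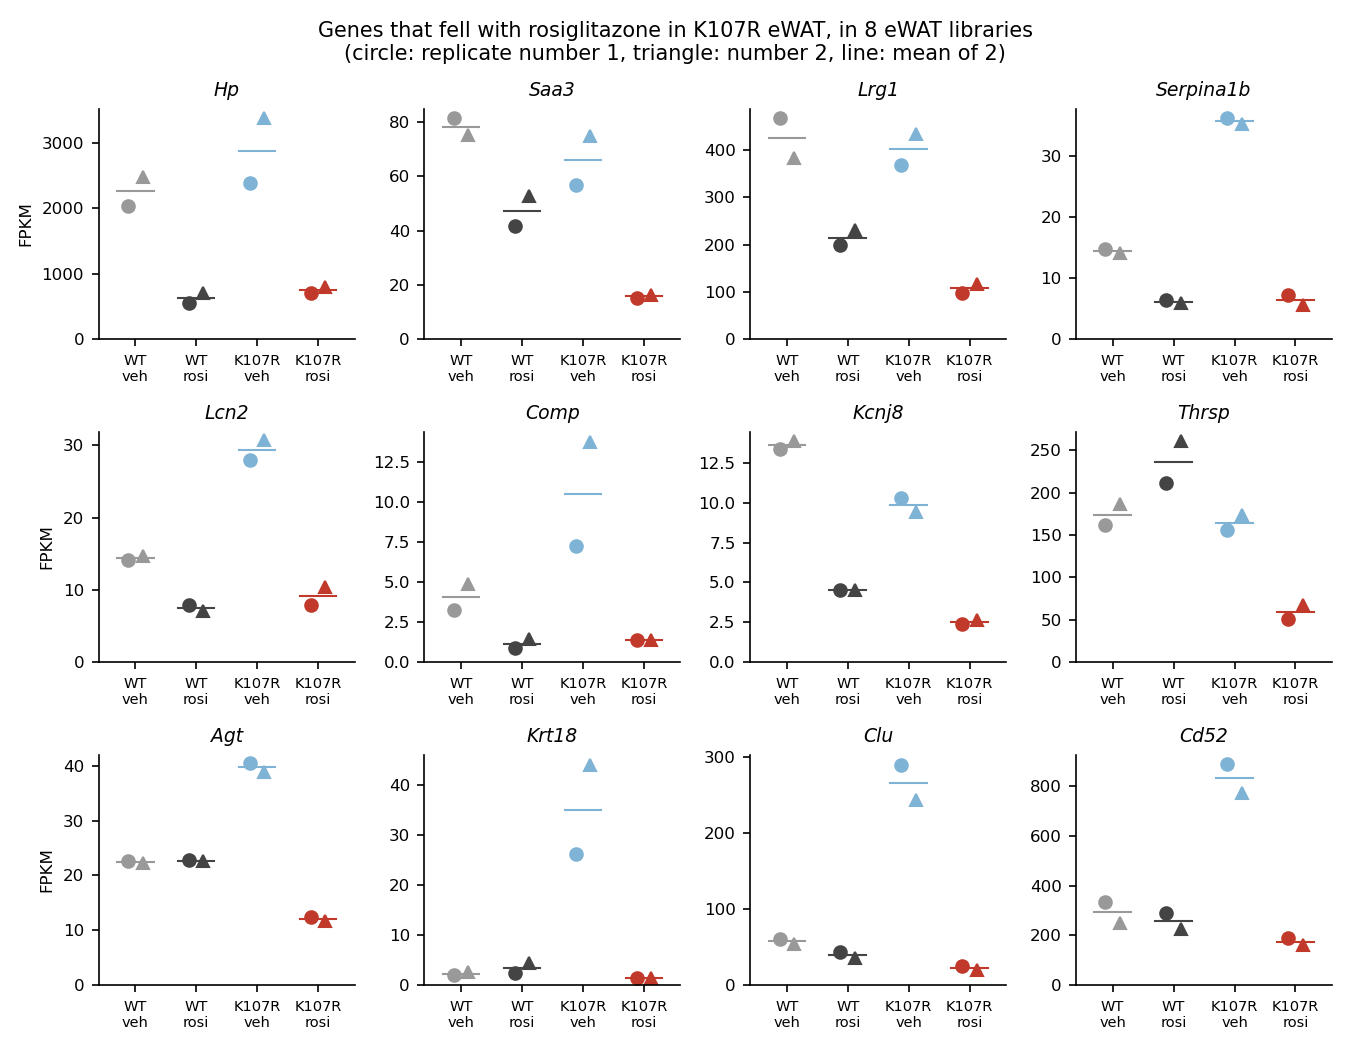
FPKM (y axis, from 0) of 12 genes that fell with rosiglitazone in K107R eWAT, in the 8 eWAT libraries by genotype and treatment (x axis); symbols show the replicate number and lines the mean of 2 libraries. Hp, Saa3, Lrg1 and Kcnj8 are lower under rosiglitazone in both genotypes, while Krt18, Clu and Cd52 are high in the K107R vehicle pair, with Clu at 289 and 243 FPKM against at most 60.4 FPKM in the other 6 libraries.

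Vessel wall and matrix genes fell in part. Of 11 mural cell markers 3 fell, 2 after rescaling, and all 11 log2 changes were negative (median -0.36), whereas 73.4% of all genes had a positive one. Kcnj8 (chromosome 6, 142564837 to 142571614), the pore of a potassium channel of vessel walls, fell from 10.3 and 9.44 FPKM to 2.38 and 2.65 FPKM (-1.63 ± 0.15, adjusted p = 4.2e-05). The smooth muscle protein Myh11 fell by 0.74 on the log2 scale. Cnn1, another, fell from 3.36 and 3.38 FPKM to 1.15 and 1.13 FPKM (-1.03 on the log2 scale), and lay at 0.708 and 0.995 FPKM in WT vehicle. Myh11 was lost without vehicle replicate 2, without either rosiglitazone library and after rescaling. Of 34 collagens and matrix genes 3 fell: the cartilage matrix proteins Comp (-2.21 ± 0.33) and Cilp (-0.87 ± 0.12) and the fibrillin Fbn1 (-0.61 ± 0.13). Comp lay at 7.28 and 13.8 FPKM under K107R vehicle, at 1.36 and 1.40 FPKM under K107R rosiglitazone, at 3.23 and 4.86 FPKM under WT vehicle and at 0.852 and 1.46 FPKM under WT rosiglitazone. Cnn1 and Comp both had a K107R vehicle mean over 2 times that of WT vehicle, and for them a response to the drug and epididymal RNA in K107R vehicle cannot be told apart. With the block 1 rose and 10 fell. Cilp and Fbn1 were lost after rescaling and Fbn1 without each of the 4 libraries. Of 13 fibroblast and progenitor markers the Wnt binder Sfrp4 (-0.83 ± 0.17) and Pi16 (-0.76 ± 0.17) fell, each lost in 3 of the 4 fits without a library. Among 15 endothelial markers Rbp7, a retinol carrier of fat capillaries, rose from 83.8 and 112 FPKM to 337 and 364 FPKM (1.85 ± 0.25, adjusted p = 0.0010), and 4 rose and 1 fell with the block. Rbp7 was lost after rescaling (log2 1.62).

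The steepest falls were in genes that were already high in K107R vehicle. Of the 219 fallen genes, 78 had a K107R vehicle mean over 2 times that of WT vehicle (1.83% of all genes did), and so did each of the 20 genes with the largest fall. Krt18 and Krt8, keratins of simple epithelia, fell from 26.1 and 43.9 FPKM to 1.49 and 1.49 FPKM (-3.81 ± 0.25) and from 23.4 and 33.4 to 2.21 and 2.04 FPKM (-3.21 ± 0.16). Clu, the secreted chaperone clusterin, which the epididymis makes in quantity, fell from 289 and 243 FPKM to 24.7 and 19.5 FPKM (-3.54 ± 0.26). Gstm7, a glutathione transferase of a family with close copies, fell from 111 and 93.9 to 1.91 and 2.21 FPKM (-5.08 ± 0.15). Cd52, a surface peptide of lymphocytes and of the epididymis, fell from 890 and 773 FPKM to 188 and 159 FPKM (-2.26 ± 0.20). In K107R iWAT Clu and Cd52 also fell (log2 -1.49 and -1.17, limma adjusted p = 0.0092 and 0.0084). Krt18, Krt8 and Gstm7 were not called there.

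Among epithelial markers 8 were set aside and 5 of the other 6 fell, with a median of -1.97. The list of epithelial markers summed to 247 and 226 FPKM in K107R vehicle, to 24.3 and 26.7 FPKM in K107R rosiglitazone and to between 31.0 and 40.1 FPKM in WT. For these genes a response to the drug and epididymal RNA in the vehicle libraries cannot be told apart. The 2 short RNAs among the 20, Mir6418 and Snora70, were listed at 0 in both rosiglitazone libraries and lost without each of the 4 libraries. Without the 78 genes, a step chosen after the data were seen, 141 fallen genes remained.

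Of 7 skeletal muscle markers left after the set-aside of 5, 2 fell, Acta1, the actin of skeletal muscle (11.4 and 12.5 FPKM, then 4.17 and 5.42 FPKM; -1.16 ± 0.19), and Tnnt3, a fast troponin (-1.44 ± 0.32), and 6 fell with the block. The 12 genes of the list in the table summed to 30.4 and 36.3 FPKM, then to 10.8 and 11.4 FPKM, and the part of muscle tissue in this was not tested. Tnnt3 was also over 2 times WT vehicle in K107R vehicle (means of 3.34 and 0.989 FPKM). Acta1 was lost without rosiglitazone replicate 1 and after rescaling, and Tnnt3 in 3 of the 4 fits without a library and after rescaling. None of 8 mesothelial markers and 5 red cell genes was called by limma, with 4 and 1 at an unadjusted p under 0.05, 2 and 1 with the block and 3 and 0 after rescaling.

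The risen genes were next set beside the same contrast in WT eWAT, where 23 genes rose (0.177%) and 36 fell (0.277%), and 139 and 192 with the block. Of the 167 genes risen in K107R, 158 had a positive log2 change in WT, as 60.4% of all genes did, with a median of 0.39 in WT against 0.84 in K107R, and 15 were called risen in WT. The 167 were picked by their K107R values, which raises the K107R median, so the 2 medians do not compare the genotypes. Of the 141 fallen genes without excess in K107R vehicle, 34 had a positive change in WT (median -0.37), 20 were called fallen there and 1 risen. Of the other 78, 44 had a positive change in WT (median 0.03) and 2 were called fallen. The test of the difference between the genotypes' responses called 30 genes higher in K107R (0.231%) and 72 lower (0.554%), and 114 (0.877%) and 193 (1.49%) with the block. Of the genes called without the block, 21 higher and 66 lower genes were also called in K107R, and 48 of the 66 had the excess under K107R vehicle.

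**Figure D5:**
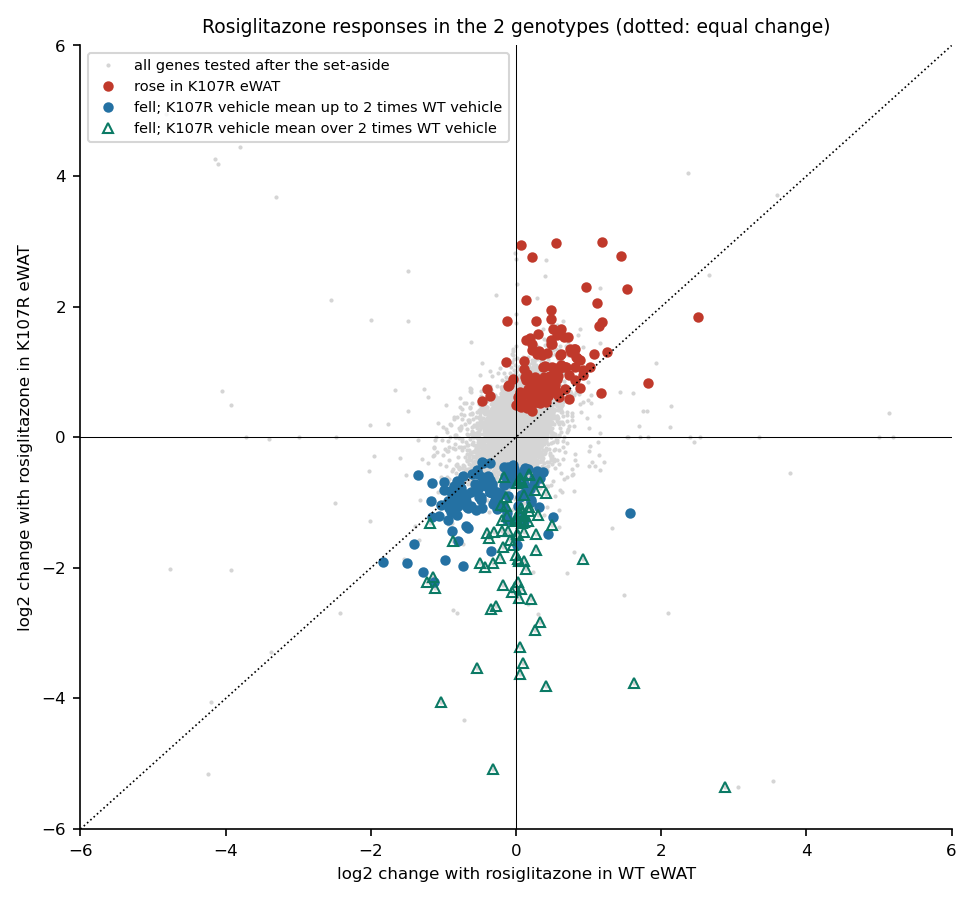
Log2 change with rosiglitazone in WT eWAT (x axis) and K107R eWAT (y axis), 1 point per gene, with called genes coloured by direction and, for falls, by whether the K107R vehicle mean exceeded 2 times that of WT vehicle. Most red points lie right of 0 (medians 0.39 in WT and 0.84 in K107R), and the open triangles lie below 0 on the y axis around a WT median of 0.03. The 2 axes share no library, but called genes were picked by their K107R values, which raises the size of their K107R change.

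The elongase Elovl3, the fatty acid carrier Fabp3 and the hormone Fgf21 had larger responses in K107R. The difference in log2 response was 1.8 for Elovl3 (adjusted p = 0.044) and 1.51 for Fabp3 (adjusted p = 0.041). It was 1.15 for Fgf21 (adjusted p = 0.013). Elovl3 reached 2.47 and 1.75 FPKM in WT rosiglitazone from 0.353 and 0.365 FPKM, and Fgf21 reached 2.42 and 1.95 FPKM from 1.37 and 1.12 FPKM. The log2(FPKM + 1) scale understates changes of low genes. Elovl3 was lower in WT, so part of its difference comes from the scale. Other differences did not pass without the replicate block and passed with it. For Ucp1 the difference was 2.42 (limma adjusted p = 0.11, and 0.0021 with the block). It was 1.34 for Ehhadh (adjusted p = 0.185, and 0.0040 with the block), 0.66 for Acadvl (0.23 and 0.042) and 1.33 for Sptlc3 (0.084 and 0.0087). Ehhadh and Acadvl were the 1 member each of the peroxisomal and mitochondrial oxidation lists that passed with the block, and no member of either list passed without it.

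The granule genes S100a9 (2.87), Ngp (1.97), Mpo (1.29) and Camp (1.28) also had larger responses in K107R. In WT they lay at 2.74 and 2.04 FPKM (S100a9) and at 0.211 FPKM or less in both libraries (Ngp, Mpo) under rosiglitazone. Ngp, Mpo and Camp entered the test through K107R rosiglitazone eWAT, the group in which they were high, so their differences are given as a description only. Ldoc1 (2.55), the Wnt-pathway ligand Rspo4 (1.35), Btnl4 (1.47) and the sodium channel subunit Scnn1g (1.32) completed the 10 with the largest positive difference. Ldoc1 lay at 0.238 FPKM or less in the WT libraries, so part of its difference comes from the scale. Among genes with a lower response in K107R, Thrsp (-1.91), Agt (-1.66) and Tpsab1 (-2.73) had no excess over 2 times in K107R vehicle. Tpsab1 rose in WT from 13.0 and 11.3 FPKM to 39.5 and 36.8 FPKM while it fell in K107R.

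In iWAT of the same genotype 249 genes rose (1.92%) and 239 fell (1.84%). Of the 167 genes risen in K107R eWAT, 158 had a positive change in iWAT, as 55.4% of all genes did (median 0.89), 116 were called risen and 2 fallen there. Of the 219 fallen, 74 were called fallen in iWAT and 2 risen (median -0.35). The test of the depot difference called 71 genes with a higher response in eWAT (0.546%) and 64 with a lower one (0.492%), and 238 (1.83%) and 175 (1.35%) with the block. Of the genes called without the block, 15 higher and 57 lower genes were also called in K107R eWAT, and 47 of the 57 had the excess under K107R vehicle.

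Cidea rose in eWAT, whereas in iWAT it lay at 34.8 and 32.2 FPKM under vehicle and 35.2 and 34.4 FPKM under rosiglitazone (difference in log2 response 1.37, adjusted p = 0.012). With the drug eWAT, at 21.1 and 19.4 FPKM, remained below iWAT. S100a9 (2.39), Ngp (2.04), Camp (1.61) and Mpo (1.15) responded more in eWAT, as did Ldoc1 (2.17) and Rspo4 (1.46). For Ngp, Camp and Mpo, which reached 1 FPKM in K107R rosiglitazone eWAT only, this is a description only. Sptlc3 responded less in eWAT (-1.60, adjusted p = 0.027). In iWAT it rose from 1.68 and 0.961 FPKM to 54.9 and 39.6 FPKM. For Ucp1 the depot difference was 2.12 (limma adjusted p = 0.19, and 0.0048 with the block), with iWAT at 6.74 and 3.34 FPKM under vehicle and 12.4 and 7.25 FPKM under rosiglitazone. Mitochondrial fatty acid oxidation had a median of 0.92 in iWAT, with 11 members risen, and no member of that list differed between depots by the test without the block. With the block Hadha responded less in eWAT (-0.65, adjusted p = 0.035), as did Acaa1b of the peroxisomal list (-0.77, adjusted p = 0.017, and 0.92 without the block).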

How the data were processed

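Fat RNA was sequenced in 16 libraries, 2 for each of 8 groups of genotype, depot and treatment. Per the labels' protocols, 4 ug of total RNA was made into stranded mRNA libraries and read as 75-nt single ends. The authors deposited 1 table of FPKM per gene, and the submitters' processing notes name CASAVA 1.8.2, TopHat2 2.0.12, Cufflinks 2.2.1 and mm10. The table holds no counts, so the depth behind a value is unknown and no counting interval was given.

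FPKM plus a pseudocount of 1 was taken to log2, and limma 3.58.1 (R 4.3.3) was fitted with 1 mean per group over all 16 libraries and a mean-variance trend. P-values were adjusted by Benjamini-Hochberg over the 13669 genes that reached 1 FPKM in 2 or more libraries, and genes were set aside afterwards. The script was tested on simulated data. Alternatives were another pseudocount, no filter, rescaling by median ratio or by sum, the 8 eWAT or 8 K107R libraries alone, other set-aside rules, a replicate block and leaving out each library. The replicate numbers come from the labels. Deviations of same-numbered libraries correlated above 0.1 in 28 of 28 pairs of groups (0.121 to 0.791), so the numbers were taken to pair the libraries. Pairs with the K107R rosiglitazone eWAT group gave only 0.121 to 0.281, and 0.129 with its own vehicle group. All other pairs gave 0.501 or more, so the pairing is weak in the contrast described here.

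Named genes were the 20 with the largest change per direction among called genes with a group mean of at least 2 FPKM, up to 6 called members of each of 41 lists (2 where none was called), the 10 with the largest difference in response per direction, the 8 highest genes set aside, and Pparg, Fabp4 and Actb. Lep, Prdm16, Ppargc1a, S100a8, the genes of the other observations and differences in response outside that rule were added after their values were seen. Members and lists were chosen with earlier results of these data known, so lists carry no test of their own. Coordinates are from GENCODE release 21 on GRCm38, which matched 13520 symbols, and promoter sequences are from RefSeq. Some items are not reported here.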

Additional observations from a re-analysis of the deposited data

Results flagged for a closer look

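The response to rosiglitazone differed between K107R and WT eWAT, by limma's test of the difference, for 30 genes higher and 72 lower in K107R. Between eWAT and iWAT of K107R it differed for 71 genes higher and 64 lower in eWAT. Values below are differences in log2 response for the 10 genes in each direction that were also called in K107R eWAT.

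Against WT, the larger responses in K107R were those of the myeloid and granule genes S100a9 (2.87), Ngp (1.97), Mpo (1.29) and Camp (1.28), the fat cell genes Elovl3 (1.8) and Fabp3 (1.51), and Ldoc1 (2.55), Btnl4 (1.47), Rspo4 (1.35) and Scnn1g (1.32). Here and against iWAT, the values of Ngp, Mpo and Camp are a description only, since these genes entered the test through the group in which they were high. Part of the differences of Elovl3 and Ldoc1, which were low in WT, comes from the log2(FPKM + 1) scale. The lower responses were those of the keratins Krt18 (-4.23) and Krt8 (-3.26), the glutathione transferase Gstm7 (-4.75), the chaperone Clu (-3.00), the short RNA Snora70 (-5.39), Spink2 (-3.69), Cyb561 (-3.54), Gldc (-3.20), Cited4 (-3.16) and Gm15056 (-3.01). Each of these 10 lower genes had a K107R vehicle mean over 2 times that of WT vehicle, and epididymis markers summed to 4943 and 4477 FPKM in those vehicle libraries. Their part in the differences was not tested.

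Against iWAT, the responses higher in eWAT were those of S100a9 (2.39), Ngp (2.04), Camp (1.61), Mpo (1.15), Ldoc1 (2.17), Rspo4 (1.46) and the lipid droplet gene Cidea (1.37). Sprr1a (2.16), Rab37 (1.33) and Serpina3g (1.02) also had higher values. Within either replicate number these 3 rose in eWAT by at most 0.980, 0.906 and 0.905, so part of each difference was a fall in iWAT. The eWAT call of Sprr1a was lost without each of the 4 libraries, and that of Serpina3g was kept in 1 of the 4 fits. The lower responses were those of Snora70 (-5.63), Gstm7 (-4.90), Krt18 (-4.17), Gm15056 (-4.08), Krt8 (-3.44), Gldc (-3.38), Cyb561 (-3.37), Spink2 (-3.33), Cited4 (-2.70) and Calml3 (-2.66).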

How the results depend on the processing

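The replicate block, which treats same-numbered libraries as paired, moved the counts most: 681 genes rose and 507 fell, the response was higher in K107R than WT for 114 genes and lower for 193, and higher in eWAT than iWAT for 238 and lower for 175. With no gene set aside 493 genes fell. With genes over 2 times WT vehicle in K107R vehicle also set aside, chosen after seeing the data, 141 fell. Sum scaling gave 49 genes higher in K107R than WT and 131 higher in eWAT than iWAT. Median ratio scaling called 145 genes for the difference from WT, of which 52 were among the 102 called on the deposited scale. For the difference from iWAT it called 177, of which 64 were among the 135 called on the deposited scale. The 8 eWAT libraries alone gave 43 genes lower in K107R, and the 8 K107R libraries alone gave 12 genes higher and 21 lower in eWAT. Beyond the number of genes or libraries tested, the cause was not tested. Without any 1 library the counts were 76 to 123 risen and 115 to 151 fallen, 13 to 19 higher and 44 to 71 lower against WT, and 29 to 63 higher and 39 to 57 lower against iWAT.

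Of the named genes, 49 lost their call under median ratio scaling, 27 with the eWAT libraries alone, 11 under sum scaling and 5 with a pseudocount of 0.1, and 8 gained one with the block. Directions reversed for Actb without K107R vehicle replicate 2 (log2 -0.78, and 3.58 without vehicle replicate 1) and for Sae1 under median ratio scaling (-0.0057), neither of them called. With 2 libraries per group and no counts, the precision rests on the spread shared over all 16 libraries.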

Other observations

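Several genes of lipid and glucose use did not pass the test without the replicate block but passed with it, and were chosen after their values were seen. Cpt1b, the muscle-type gate for fatty acids into mitochondria, lay at 8.44 and 2.74 FPKM under K107R vehicle and at 32.3 and 31.3 FPKM under rosiglitazone (log2 2.46 ± 0.78 SE, limma adjusted p = 0.153, and 0.00138 with the block). Both WT rosiglitazone libraries lay far lower, at 5.63 and 3.12 FPKM. The lipase Pnpla2, which starts triglyceride breakdown, lay at 592 and 444 FPKM, then at 998 and 1043 FPKM (0.99 ± 0.25, limma adjusted p = 0.0599, and 0.0010 with the block). The insulin-regulated glucose carrier Slc2a4 lay at 24.3 and 18.0 FPKM, then at 37.1 and 40.6 FPKM (0.86 ± 0.22, limma adjusted p = 0.0539, and 0.0021 with the block).

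In the other direction, Gpx3, a secreted glutathione peroxidase, lay at 591 and 306 FPKM, then at 162 and 139 FPKM (-1.49 ± 0.60, limma adjusted p = 0.345, and 0.0010 with the block). The part of epididymal RNA in its K107R vehicle values was not tested. The groups did not overlap for any of these 4 genes, and vehicle replicate 2 lay below vehicle replicate 1 in each of them.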
